A study of Mus musculus with 24 samples.

Results

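Endothelial cells line the capillaries that run along each muscle fibre, and 10 of their genes were followed here in mouse gastrocnemius muscle: Cldn5, Icam2, Lyl1, Tcf15, Cdh5, Pecam1, Tie1, Tek, Kdr and Esam. A probe was taken as belonging to a gene when the array's own gene name, or the current symbol of its accession, was that gene. This gave 14 of the 41174 different probes on the array, and 11 of them, with at least 1 for each of the 10 genes, were bright enough to enter the 15958 probes analysed. Cldn5, Icam2, Lyl1 and Tcf15 had been chosen because they were low in cHF+F mice, so their differences between diets are given as a description, with no test. The other 6 (Cdh5, Pecam1, Tie1, Tek, Kdr and Esam) were added as general marks of the cell type, to ask whether endothelial genes fall together in cHF+F. These 6 and the gene lists used below were also chosen with earlier results of these data known. Their counts and p-values are therefore no independent test.

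The study fed adult male C57BL/6N mice, 3 months old at the start, for 8 weeks on a diet in which lipids made up 35% of the weight (cHF, the high-fat control), on the same diet with 15% of its lipids replaced by a concentrate of n-3 fatty acids holding 46% DHA and 14% EPA (cHF+F), or on cHF with rosiglitazone, a drug that activates PPAR-gamma, at 10 mg/kg diet (cHF+ROSI). All mice were then fasted for 10 h in daytime, re-fed ordinary chow overnight and killed the next morning, so every value below belongs to the re-fed state. RNA of 24 mice, 8 per diet, was labelled with Cy5 and hybridised on 24 two-colour arrays against 1 common pool of Cy3-labelled RNA, without dye swaps. The pool also held RNA of mice given a higher rosiglitazone dose, which were not analysed here. The measure is log2(Cy5/Cy3), the level of a gene in a mouse relative to the pool.

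The arrays lay on 8 slides. Each slide carried 1 mouse of each diet at the same 3 positions, so diet and position on the slide cannot be told apart. In Cy5, 30.4% to 61.3% of the spots stood well above background on 23 arrays, and 91.1% did on the array of cHF+ROSI replicate 4. The 5 arrays with the lowest shares, cHF replicates 1 to 3 and cHF+F replicates 2 and 3, lay on slides 1 to 3. No cHF+ROSI array was among them. The values of the members without these slides are given after those of all arrays. No probe out of 15958 passed an adjusted p of 0.05 in any contrast (limma, Benjamini-Hochberg), while 1096 probes in cHF+F versus cHF, 751 in cHF+ROSI versus cHF and 1062 in cHF+F versus cHF+ROSI had an unadjusted p under 0.05. The methods' t-test with the same adjustment also called 0, and 1265, 754 and 937 probes had an unadjusted p under 0.05 in it.

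Endothelial cells are held together by adherens junctions built on VE-cadherin (Cdh5) and by tight junctions in which claudin-5 (Cldn5) seals the space between cells. Signals that keep the vessels alive come through receptor tyrosine kinases, with VEGF acting on Kdr (VEGFR2) and the angiopoietins on Tek (Tie2), which pairs with Tie1. Muscle is densely supplied with capillaries, and its endothelium passes fatty acids and glucose from blood to the fibres. In whole muscle, fewer endothelial cells and less RNA per endothelial cell cannot be told apart.

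Promoter sequences from RefSeq were found for 5 of the 10 genes: Cldn5, Lyl1, Tie1, Tek and Kdr. The 250 bases upstream of the start are shown for 2 of the genes chosen for their low level in cHF+F, Cldn5 and Lyl1, and for 2 general ones, Tie1 and Kdr. Capitals mark GGAA or its complement TTCC, the core letters that ETS factors such as Erg and Fli1 recognise. Coordinates are those of GRCm38.p6, and each sequence is written 5′ to 3′ on the strand of its gene. The regions are chr16:18776597-18776846 (plus strand) for Cldn5, chr8:84701207-84701456 (plus strand) for Lyl1, chr4:118489850-118490099 (minus strand) for Tie1 and chr5:75978456-75978705 (minus strand) for Kdr.
Cldn5: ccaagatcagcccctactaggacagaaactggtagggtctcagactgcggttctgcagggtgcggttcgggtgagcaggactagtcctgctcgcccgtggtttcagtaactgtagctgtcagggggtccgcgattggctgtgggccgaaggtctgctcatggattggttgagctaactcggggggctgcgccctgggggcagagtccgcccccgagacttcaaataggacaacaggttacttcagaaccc
Lyl1: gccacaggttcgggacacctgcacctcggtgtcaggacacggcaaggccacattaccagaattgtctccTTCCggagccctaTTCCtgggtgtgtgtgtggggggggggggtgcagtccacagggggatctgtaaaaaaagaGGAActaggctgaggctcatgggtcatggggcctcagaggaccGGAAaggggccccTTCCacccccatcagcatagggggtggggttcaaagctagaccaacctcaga
Tie1: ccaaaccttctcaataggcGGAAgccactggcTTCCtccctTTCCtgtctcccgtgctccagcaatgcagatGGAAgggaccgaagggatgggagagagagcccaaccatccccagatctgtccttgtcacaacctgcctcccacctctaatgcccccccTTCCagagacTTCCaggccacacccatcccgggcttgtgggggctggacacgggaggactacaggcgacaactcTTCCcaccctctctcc
Kdr: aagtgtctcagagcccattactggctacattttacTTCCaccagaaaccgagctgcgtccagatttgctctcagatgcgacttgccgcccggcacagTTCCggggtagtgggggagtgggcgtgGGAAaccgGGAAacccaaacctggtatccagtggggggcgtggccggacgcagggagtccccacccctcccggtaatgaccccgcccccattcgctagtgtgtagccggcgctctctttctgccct

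The GGAA letters, on either strand, were found 7 times in the Tie1 window, 5 times in Lyl1, 4 times in Kdr, 2 times in Tek and 0 times in Cldn5. Over 32851 mouse promoters of the same length the median was 3, and 93.4% held at least 1. The letters CANNTG, the E-box read by bHLH factors such as Lyl1, were found once or more in every one of these windows except that of Cldn5, and in 66.2% of all promoters. GATAA (22.6% of all promoters) and TATAAA (12.4%) were in none of the 5, and GGGCGG (32.7%) was found 2 times in Kdr and 1 time in Cldn5. The motifs may overlap each other, and a match says only that the letters are there.

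In cHF+F versus cHF, all 10 genes had a lower mean log2 ratio, by 0.048 to 0.65, with a median change of -0.16. The rule had used this contrast for 4 of them, and of all probes 49.7% were lower. The 6 general genes were also all lower, with a median of -0.12 beside 0.00049 for all probes, but none was called. They too were chosen with earlier results of these data known, so their count is a description. In Cy5 alone 9 of the 10 were lower, beside 48.2% of all probes, the exception being Kdr at 0.038. That the chosen 4 had larger changes than the other 6 follows from the choice.

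**Figure D1:**
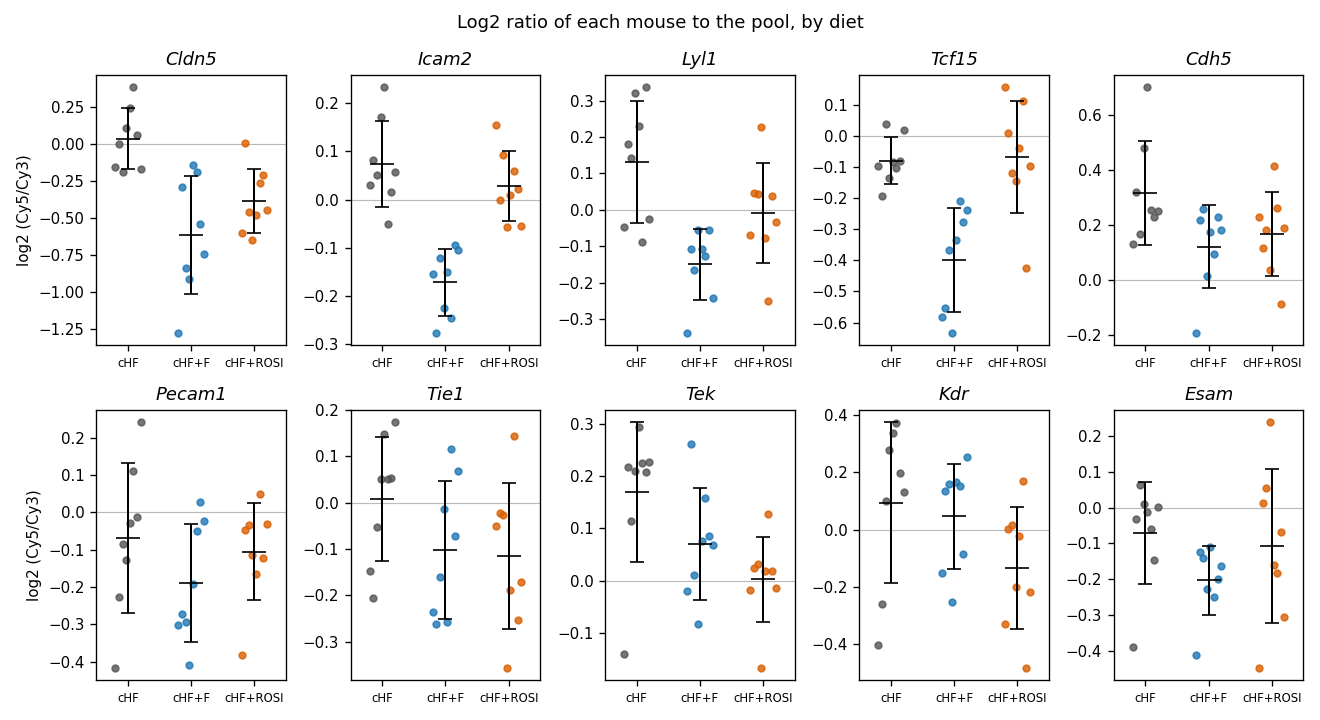
Log2(Cy5/Cy3) of the 10 genes in each of 24 mice, by diet (8 points per diet; the long tick is the mean and the bars the SD; each panel has its own vertical scale). For Icam2 and Tcf15, both chosen for low values in cHF+F, no cHF+F mouse reaches the lowest cHF mouse, as for 0.0439% of all probes. The groups of the 6 general genes overlap.

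Cldn5, the claudin of endothelial tight junctions (probe at chr16:18691516-18691575, build mm8), had the lowest value of the 10 in cHF+F. Its log2 ratio was -0.19 at the lowest, 0.029 at the median and 0.38 at the highest in cHF. In cHF+F it was -1.28, -0.64 and -0.14, and in cHF+ROSI -0.65, -0.45 and 0.0059. All 8 cHF+F mice lay below the cHF mean, as for 3.02% of all probes, and 5 of the 8 cHF mice stood above the highest cHF+F mouse. For such partial counts, here and for the other genes, no share over all probes was taken. The change was -0.65 (SE 0.13) in cHF+F and -0.42 (SE 0.13) in cHF+ROSI, a change in level of -36.3% and -25.3%. Among the cHF+F mice Cldn5 also varied most, with an SD of 0.40 against 0.21 in cHF and 0.22 in cHF+ROSI.

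Icam2, an adhesion molecule that endothelial cells carry at all times and that binds leukocyte integrins (chr11:106193821-106193880), changed less but with the smallest spread. Its log2 ratio ran from -0.050 through a median of 0.054 to 0.23 in cHF, and from -0.28 through -0.15 to -0.095 in cHF+F. The 2 groups did not overlap, which was the case in this direction for 0.0439% of all probes (7 probes). In cHF+ROSI it ran from -0.058 through 0.016 to 0.16, so that no cHF+F mouse reached the lowest cHF+ROSI mouse either, as for 0.0251% of all probes. The change was -0.25 (SE 0.047) in cHF+F and -0.046 (SE 0.047) in cHF+ROSI, and on 8 of 8 slides the cHF+F mouse was below both others. Lower on at least 7 of 8 slides were 8.21% of all probes in cHF+F versus cHF and 5.08% in cHF+F versus cHF+ROSI.

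Lyl1, a bHLH transcription factor of blood and endothelial cells and a relative of Tal1 (chr8:87594737-87594796), lay between the other diets in cHF+ROSI. The values in cHF were -0.088, 0.16 and 0.34 (lowest, median, highest), in cHF+F -0.34, -0.12 and -0.055, and in cHF+ROSI -0.25, 0.0026 and 0.23. Of the 8 cHF mice, 7 stood above the highest cHF+F mouse. The change was -0.28 (SE 0.069) in cHF+F and -0.14 (SE 0.069) in cHF+ROSI, and both diets were below cHF on 8 of 8 slides (for cHF+ROSI, 5.88% of all probes were lower on at least 7).

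Tcf15, a bHLH factor that in muscle capillaries is paired with Meox2 in fatty acid uptake (chr2:151840388-151840447), was low in cHF+F alone among the 3 group means. It ran from -0.19 through -0.090 to 0.038 in cHF, from -0.63 through -0.35 to -0.21 in cHF+F, and from -0.42 through -0.068 to 0.16 in cHF+ROSI. The cHF+F mice did not overlap with the cHF mice, as in this direction for 0.0439% of all probes (7 probes). In cHF+ROSI, 1 mouse, replicate 7, stood within the cHF+F range. The change was -0.32 (SE 0.073) in cHF+F and 0.011 (SE 0.073) in cHF+ROSI, and the latter was -0.093 (SE 0.15) in Cy5 alone. Of the 4 chosen genes, Tcf15 and Icam2 thus had ratios near cHF under rosiglitazone, while Cldn5 and Lyl1 lay between cHF and cHF+F. In Cy5 alone Icam2 was at -0.22 (SE 0.11) in cHF+ROSI and -0.34 (SE 0.11) in cHF+F. Its Cy3 change in cHF+ROSI versus cHF was -0.14 (SE 0.097).

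Cdh5, the VE-cadherin gene, was measured by 2 probes. The brighter one (chr8:107033388-107033447) ran from 0.13 through 0.25 to 0.70 in cHF, from -0.19 through 0.18 to 0.26 in cHF+F and from -0.088 through 0.18 to 0.41 in cHF+ROSI. All 8 cHF+F mice lay below the cHF mean, as for 3.02% of all probes, and the groups overlapped, with 3 cHF mice above the highest cHF+F mouse. Its change was -0.19 (SE 0.080, adjusted p = 0.632 in limma) in cHF+F and -0.15 (SE 0.080, adjusted p = 0.996) in cHF+ROSI. The other probe (chr8:107032728-107032787) gave -0.18 (SE 0.090) and -0.11 (SE 0.090). In Cy5 alone the probes parted in cHF+ROSI versus cHF, where the brighter one was at 0.097 (SE 0.24) and the other at -0.30 (SE 0.15), with adjusted p-values of 0.897 and 0.798 in limma. Cdh5 had the largest change of the 6 general genes in cHF+F.

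Esam, an adhesion molecule of endothelial tight junctions that the array names Esam1 (chr9:37287630-37287689), was 0.13 lower in cHF+F on the log2 scale (SE 0.078, adjusted p = 0.825 in limma). It was below cHF on 8 of 8 slides, although the slide differences were small, from -0.24 to -0.022. In cHF+ROSI the change was -0.037 (SE 0.078), with the cHF+ROSI mouse lower on 5 of 8 slides. Pecam1 (CD31), the adhesion molecule used to stain capillaries, changed by -0.12 (SE 0.080, adjusted p = 0.871) in cHF+F and by -0.037 (SE 0.080) in cHF+ROSI. Its probe (chr11:106497165-106499018) was printed in 10 spots per array. The median SD among those spots was 0.070, against 0.17 between mice of 1 diet, so that the spots of an array differed less than the mice did.

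Tie1, the receptor without a known main ligand (chr4:117969459-117969518), changed by -0.11 (SE 0.073, adjusted p = 0.869 in limma) in cHF+F and by -0.12 (SE 0.073, adjusted p = 0.996) in cHF+ROSI. Tek, the angiopoietin receptor (chr4:94366188-94366246), ran from -0.14 through 0.21 to 0.29 in cHF, from -0.082 through 0.072 to 0.26 in cHF+F and from -0.17 through 0.019 to 0.13 in cHF+ROSI. Of the 8 cHF mice, 6 stood above the highest cHF+ROSI mouse and 1 above the highest cHF+F mouse. Its change was -0.17 (SE 0.058) in cHF+ROSI, with an unadjusted p of 0.00813 and an adjusted p of 0.996 in limma, and -0.10 (SE 0.058, adjusted p = 0.825) in cHF+F. Between cHF+F and cHF+ROSI, Tie1 differed by 0.013 (SE 0.073), and this sign turned when any 1 of 4 arrays was left out.

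Kdr, the main VEGF receptor of endothelium, was the member closest to cHF in cHF+F. Its bright probe (chr5:76214981-76215040, 10 spots per array) ran from -0.40 through 0.16 to 0.37 in cHF, from -0.25 through 0.14 to 0.25 in cHF+F and from -0.48 through -0.11 to 0.17 in cHF+ROSI. The change was -0.048 (SE 0.11, adjusted p = 0.985 in limma) in cHF+F and -0.23 (SE 0.11, adjusted p = 0.996) in cHF+ROSI. In cHF+F, 4 of 8 slides had the cHF+F mouse below the cHF mouse, and the differences spread from -0.53 to 0.40. The median SD among the 10 spots was 0.068 and the SD between mice of 1 diet 0.23. Without slides 1 to 3, the change of Kdr was -0.22 (SE 0.11, adjusted p = 0.704) in cHF+F and -0.41 (SE 0.11, adjusted p = 0.342) in cHF+ROSI.

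**Figure D2:**
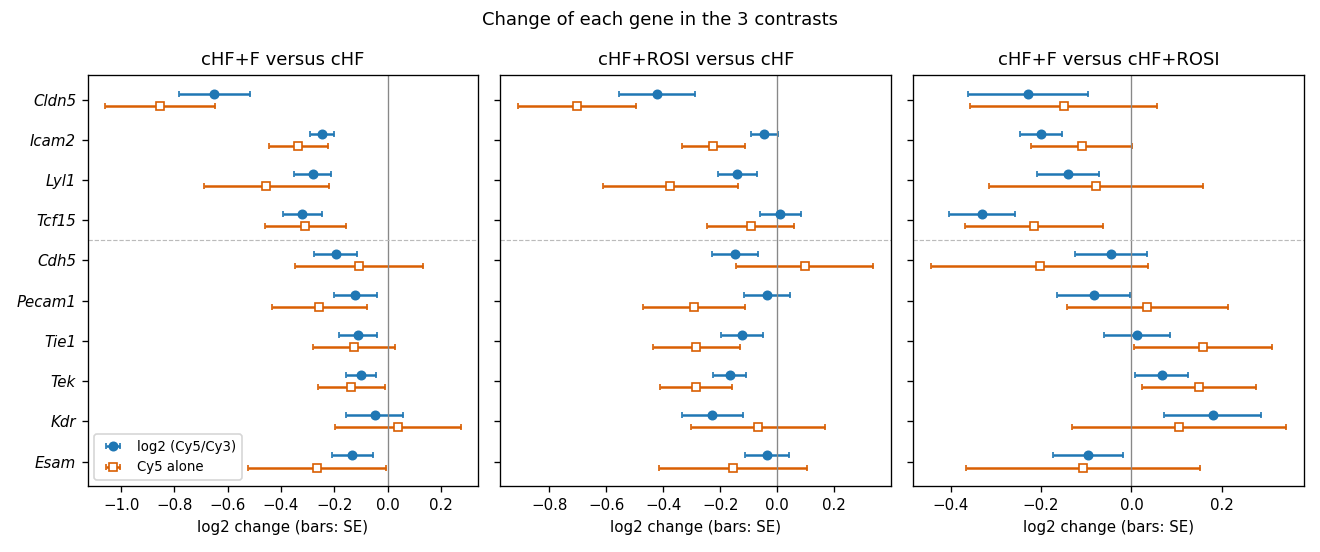
Log2 change of each gene (horizontal axis; bars, SE) in the 3 contrasts, as log2(Cy5/Cy3) (filled circles) and in Cy5 alone (open squares), 8 mice per diet; the dashed line parts the 4 chosen genes from the 6 general ones. In cHF+F versus cHF all 10 ratios lie below 0, and the bars of Cy5 alone are the longer ones.

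In cHF+ROSI versus cHF, 9 of the 10 genes had the lower mean (54.4% of all probes were lower), with a median of -0.13. The 6 general genes were all lower, with a median of -0.14 beside -0.0082 for all probes, and 2 of them, Tek and Kdr, had an unadjusted p under 0.05, as 3% of all probes did in that direction. The contrasts of cHF+F and of cHF+ROSI share the cHF mice, so that a high value in those 8 mice enters both. Set against each other, cHF+F and cHF+ROSI had nearly the same mean over the 6 general genes (-0.043 and -0.049). Kdr was 0.18 higher in cHF+F than in cHF+ROSI (SE 0.11, adjusted p = 0.790 in limma) and Tek 0.067 higher (SE 0.058, adjusted p = 0.878), while all 4 chosen genes were lower in cHF+F, by 0.14 to 0.33. In that contrast 46.1% of all probes were lower, and the values of the chosen 4 are a description there as well.

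Mice of the same slide were also compared. The slide counts of the chosen genes use the values by which these genes were chosen and are a description: Cldn5, Icam2, Lyl1 and Tcf15 were lower in the cHF+F mouse than in the cHF mouse on 8 of 8 slides each. Of the 6 general genes, Esam reached 8 of 8, Cdh5 and Tie1 7 of 8, Pecam1 and Tek 6 of 8 and Kdr 4 of 8. In cHF+ROSI versus cHF, Tek was lower on 7 of 8 slides, Kdr on 6, Cdh5 and Esam on 5 and Pecam1 and Tie1 on 4. With slide as a block, Cdh5, Pecam1 and Esam in cHF+F versus cHF had unadjusted p-values of 0.013, 0.036 and 0.024 in limma. Of all probes, 6.49% were lower at that level, and the adjusted p-values of these genes were 0.266, 0.368 and 0.322. In cHF+ROSI versus cHF, 3 general genes were also lower at that level, beside 5.53% of all probes. Tek, Kdr and Cdh5 had unadjusted p-values of 0.0025, 0.017 and 0.0495 there in limma, and adjusted p-values of 0.298, 0.431 and 0.523. The block called 0.0376% of all probes in cHF+F versus cHF and 0 in the other contrasts, with no general gene among them.

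**Figure D3:**
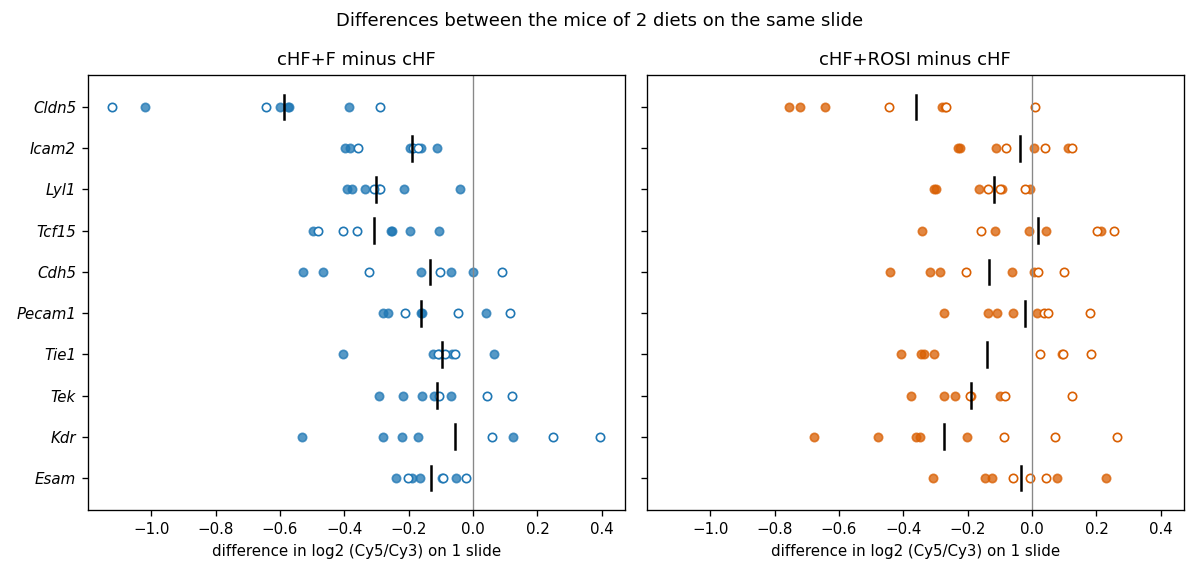
Difference in log2(Cy5/Cy3) between 2 mice of the same slide (1 point per slide; open points, slides 1 to 3; vertical ticks, medians), for cHF+F minus cHF and cHF+ROSI minus cHF. For Cldn5, Icam2, Lyl1, Tcf15 and Esam all 8 points of cHF+F lie below 0, and for Kdr the 3 open points lie above it.

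Since the pool was the same on every array, Cy3 alone should carry no diet, and it was used as a background for Cy5 alone. On slides 1 to 3 the Cy3 values were not those of the other slides. Kdr ran from 8.69 to 8.94 in Cy3 (log2 signal) on the 15 arrays of slides 4 to 8 and from 6.75 to 8.90 on slides 1 to 3, and Cldn5 from 9.59 to 9.85 and from 9.91 to 11.22. The cHF array of slide 3, with the lowest share of spots above background, held both extremes. Over all 24 arrays the Cy3 change of the members in cHF+F versus cHF was -0.16 for Cldn5, 0.24 for Cdh5 and 0.16 for Kdr, none with an adjusted p under 0.05.

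On slides 4 to 8, the Cy3 changes of the 10 members in cHF+F versus cHF stayed between -0.036 and 0.023, and Cy5 alone and the ratio gave near values. Cldn5 was -0.68 (SE 0.16) in Cy5 alone and -0.63 (SE 0.14) as a ratio. Icam2 was -0.24 (SE 0.079) and -0.25 (SE 0.061). Lyl1 was -0.27 in both, with SE 0.12 and 0.095. Tcf15 was -0.28 (SE 0.099) and -0.26 (SE 0.092). All 10 members were lower in cHF+F on these 5 slides on both scales. The median of the members was -0.23 as a ratio and -0.21 in Cy5 alone. Cldn5, Icam2, Lyl1 and Tcf15 had been chosen for low values in cHF+F, on arrays that include these. That count and those medians are therefore a description. The general genes Cdh5, Pecam1, Tie1, Tek, Kdr and Esam were also all lower on both scales. Of all probes, 49.3% were lower as a ratio and 48.8% in Cy5 alone. The general genes ran from -0.24 (Cdh5) to -0.13 (Tie1) as a ratio. In Cy5 alone they ran from -0.29 (Cdh5) to -0.090 (Tie1). Cy5 alone on these slides was added after the data had been seen. Over all 24 arrays the median in Cy5 alone was -0.26, with Cldn5 at -0.85 (SE 0.21) and Lyl1 at -0.45 (SE 0.24).

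The ratios of the other members also differed without slides 1 to 3. In cHF+F versus cHF, Cdh5 was at -0.24 (SE 0.10), Pecam1 at -0.17 (SE 0.086), Tie1 at -0.13 (SE 0.086), Tek at -0.17 (SE 0.061) and Esam at -0.15 (SE 0.080). In cHF+ROSI versus cHF, the vascular receptors were lower than over all arrays, with Tie1 at -0.26 (SE 0.086) and Tek at -0.24 (SE 0.061), and Cdh5 was at -0.22 (SE 0.10), Pecam1 at -0.11 (SE 0.086) and Esam at -0.054 (SE 0.080). None of the 6 general genes was called on these slides in any contrast. Of the chosen genes, Cldn5 was then at -0.53 (SE 0.14), Icam2 at -0.090 (SE 0.061), Lyl1 at -0.17 (SE 0.095) and Tcf15 at -0.042 (SE 0.092) in cHF+ROSI versus cHF, so that the sign of Tcf15 turned. Between cHF+F and cHF+ROSI the difference was -0.096 (SE 0.14) for Cldn5 and -0.16 (SE 0.061) for Icam2. It was -0.098 (SE 0.095) for Lyl1 and -0.22 (SE 0.092) for Tcf15. For the receptors it was 0.20 (SE 0.11) for Kdr, 0.13 (SE 0.086) for Tie1 and 0.064 (SE 0.061) for Tek. Slides 4 to 8 still hold cHF+ROSI replicate 4, the array with 91.1% of spots above background in Cy5. Its ratio was the lowest of that diet there for Tie1 (-0.36) and Tek (-0.17). In Cy3, the change of Esam in cHF+ROSI versus cHF was 0.18 (SE 0.14) on these slides. For the other members the Cy3 change ran from -0.057 (Cdh5) to 0.055 (Cldn5).

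A wider list of 28 other endothelial genes, which holds none of the members, was measured by 26. This list too was chosen with earlier results of these data known. In cHF+F versus cHF, 25 of 26 were lower (49.7% of all probes were), with a median of -0.11. The single exception was Tmem204 at 0.091 (SE 0.074). Of the 26, 8 had an unadjusted p under 0.05 and were lower (4.03% of all probes did so), 0 were higher at that level (2.84% of all probes), and 0 passed the adjusted p, the smallest being 0.546 in limma. In Cy5 alone 18 of 26 were lower over all arrays, with a median of -0.081, and 23 of 26 on slides 4 to 8, with a median of -0.13. The shares of all probes lower in Cy5 alone were 48.2% over all arrays and 48.8% on slides 4 to 8. In cHF+ROSI versus cHF the list was split, 13 lower and 13 higher, with a median of -0.0040. Without slides 1 to 3 that count was 17 lower of 26, with a median of -0.074. The shares of all probes lower in this contrast were 54.4% over all arrays and 56.2% without slides 1 to 3. Between cHF+F and cHF+ROSI, 24 of 26 were lower in cHF+F, with a median of -0.083 and 0 called. Of all probes 46.1% were lower in that contrast. In Cy5 alone 16 of the 26 were lower, beside 40.1% of all probes.

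Of this list, Egfl7, a secreted protein of endothelium, had the smallest p, with a change of -0.23 (SE 0.084) in cHF+F, below cHF on 8 of 8 slides. Nos3, endothelial nitric oxide synthase, changed by -0.14 (SE 0.053) and Mmrn2, a matrix protein that binds Cd93, by -0.23 (SE 0.097), each also lower on 8 of 8 slides. Sox17, a transcription factor of arterial endothelium, changed by -0.15 (SE 0.070). Their adjusted p-values ran from 0.546 to 0.701. The list's mean log2 ratio per mouse was -0.12, -0.022 and 0.082 in cHF (lowest, median, highest), -0.25, -0.13 and -0.028 in cHF+F and -0.20, -0.016 and 0.14 in cHF+ROSI. All 8 cHF+F mice lay below the cHF mean, 5 of them below the lowest cHF mouse and 1 below the lowest cHF+ROSI mouse.

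Genes that act on or beside the members were described by lists in the same way. Of all probes, 49.7% were lower in cHF+F versus cHF and 54.4% in cHF+ROSI versus cHF. Of 24 growth factor and Notch genes, 20 were lower in cHF+F, with a median of -0.076. Pdgfb, the factor that draws pericytes to vessels, changed by -0.14 (SE 0.055) and Apln, the ligand of the apelin receptor, by -0.18 (SE 0.074), with adjusted p-values of 0.576 and 0.625 in limma. Notch4 and Heyl, a receptor and a target of the Notch pathway, were at -0.14 and -0.15. In cHF+ROSI 18 of 24 were lower, with a median of -0.057.

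Of 15 cell junction genes, the neighbours of Cldn5 and Cdh5 at the contact between cells, 11 were lower in cHF+F with a median of -0.033. Afdn, which links junctions to actin, changed by -0.18 (SE 0.089), Jam2, an adhesion molecule of tight junctions, by -0.13 (SE 0.065), Gja1, connexin 43, by -0.13 (SE 0.069) and Pard3, a polarity protein, by 0.10 (SE 0.064). Of 8 leukocyte adhesion genes, which Icam2 belongs beside, 7 were lower with a median of -0.063. The changes of Icam1 and of Itgb2, a chain of its integrin receptor, were both -0.11, that of Vcam1 -0.081 and that of Itgb1 -0.055. No gene of either list was called. In cHF+ROSI versus cHF, 7 of the 15 junction genes were lower (median 0.017) and 5 of the 8 leukocyte adhesion genes (median -0.0089).

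Of 12 partners of the bHLH factors, 10 were lower in cHF+F with a median of -0.046. Id1 and Id3, which hold bHLH factors off DNA, were at -0.19 (SE 0.095) and -0.12 (SE 0.084). Meox1 and Meox2, the homeobox factors of which the second pairs with Tcf15, were at -0.11 (SE 0.056) and -0.12 (SE 0.081). Of 9 genes of endothelial fatty acid handling, 6 were lower in cHF+F with a median of -0.16. The fatty acid transporter Cd36 changed by -0.36 (SE 0.16), Gpihbp1, which carries lipoprotein lipase to the capillary lumen, by -0.19 (SE 0.076), Aqp7, a glycerol channel, by -0.17 (SE 0.063) and Angptl4, an inhibitor of lipoprotein lipase, by -0.51 (SE 0.27). Cd36 and Angptl4 are also made by muscle fibres and other cells. The adjusted p-values of all these genes were above 0.54. In cHF+ROSI versus cHF, 9 of the 12 bHLH partners were lower (median -0.042) and 7 of the 9 fatty acid genes (median -0.095).

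**Figure D4:**
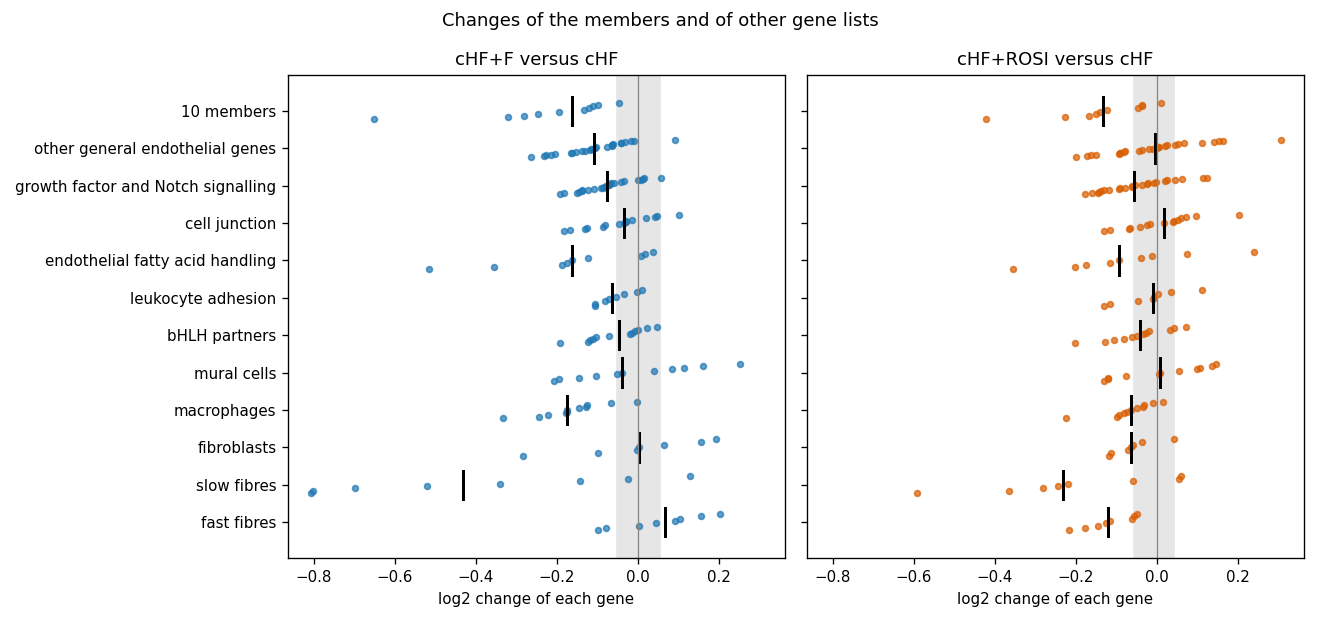
Log2 change of each gene (points) in cHF+F versus cHF and in cHF+ROSI versus cHF, for the 10 members and 11 lists; black ticks are medians and the grey band holds all 15958 probes from the lower to the upper quartile. In cHF+F the medians of the members, of the other general endothelial, growth factor and Notch, fatty acid handling, leukocyte adhesion and macrophage genes and of the slow fibre genes lie below the band. In cHF+ROSI the medians below it are those of the members and of the growth factor and Notch, fatty acid handling, macrophage, fibroblast, slow fibre and fast fibre genes.

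Markers of other cells also had lower means in cHF+F, with none called. All 11 macrophage genes were lower, with a median of -0.18 (10 of 11 and -0.13 in Cy5 alone), and C1qc (-0.33, SE 0.12), Cd14 (-0.18, SE 0.074), Csf1r (-0.22, SE 0.10) and C1qa (-0.24, SE 0.13) had the smallest p-values. Their summed Cy5 signal ran from 13810 to 22110 in cHF, 9298 to 21980 in cHF+F and 12480 to 23750 in cHF+ROSI. Of 8 slow fibre genes, 7 were lower, with a median of -0.43 (6 of 8 and -0.23 in Cy5 alone), led by Tnni1 (-0.81, SE 0.29) and Tnnc1 (-0.70, SE 0.29), the slow troponins, and by Myh7, the slow myosin (-0.80, SE 0.37), with Tpm3, a slow tropomyosin, at -0.14 (SE 0.068). In Cy5 alone Tnni1 was at -0.91 and Tnnc1 at -0.81, but Myh7 at -0.23, with a Cy3 change of 0.54 in the common pool. Slow fibres have more capillaries than fast ones. Their summed signal ran from 48060 to 208300 in cHF, 67150 to 187900 in cHF+F and 86910 to 197400 in cHF+ROSI. In cHF+ROSI versus cHF, 10 of the 11 macrophage genes were lower (median -0.063) and 6 of the 8 slow fibre genes (median -0.23). The part of the slow fibre and macrophage content in the changes of the endothelial genes was not tested.

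Other lists moved less evenly. Of 11 mural genes, for the pericytes and smooth muscle around the vessels, 6 were lower and 5 higher in cHF+F, with a median of -0.040; Cspg4 and Kcnj8, both of pericytes, were at -0.20 (SE 0.084) and -0.21 (SE 0.092), Pdgfrb at -0.15 (SE 0.088) and Abcc9 at 0.16 (SE 0.095). Of 7 fibroblast genes 3 were lower, led by Lum (-0.28, SE 0.093), with Dpt at -0.098, Col1a1 at 0.19 and Col1a2 at 0.16. Of 8 fast fibre genes 2 were lower, with Mylpf at 0.20, Tnnt3 at 0.16, Actn3 at 0.10 and Pvalb at -0.099. Of 6 adipocyte genes 4 were lower, with Cfd at 0.28, Lep at -0.15, Cidec at -0.12 and Adipoq at -0.092, each with an SE of at least 0.27. The 3 red cell genes kept were within 0.054 of cHF in cHF+F and at a median of -0.46 in cHF+ROSI. None of the 6 lymphocyte genes, 1 of 5 platelet genes (Pf4, -0.20, SE 0.13) and 1 of 5 lymphatic genes (Lyve1, -0.25, SE 0.13) were bright enough to be kept. The defining lymphatic gene Prox1 was among those not kept. No gene of these lists was called in any contrast.

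Over the 24 mice, after the diet means were removed, the 45 pairs of members had a median Pearson r of 0.28, and 36 pairs were above 0. The 15 pairs among the 6 general genes had a median r of 0.41 (Spearman rho 0.40), with Tek and Kdr at 0.63 and Pecam1 and Kdr at 0.62, whereas the 6 pairs among the 4 chosen genes had a median of 0.12, with Lyl1 and Tcf15 the lowest at -0.25. After slide means were removed as well, the median was 0.22 over all pairs, 0.42 among the general genes and 0.28 among the chosen ones. Pecam1 and Esam then had the highest r (0.67) and Cdh5 and Esam the lowest (-0.35). The points share slides, the pool and the scanner's settings, and these values are a description. In Cy5 alone, with diet means removed, r ran from -0.89 to 0.89, and the median among the general genes was -0.30. The Cy3 channel of the same pool, with diet and slide means removed, had r from -0.97 to 0.98, although every array held the same pool in that channel.

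**Figure D5:**
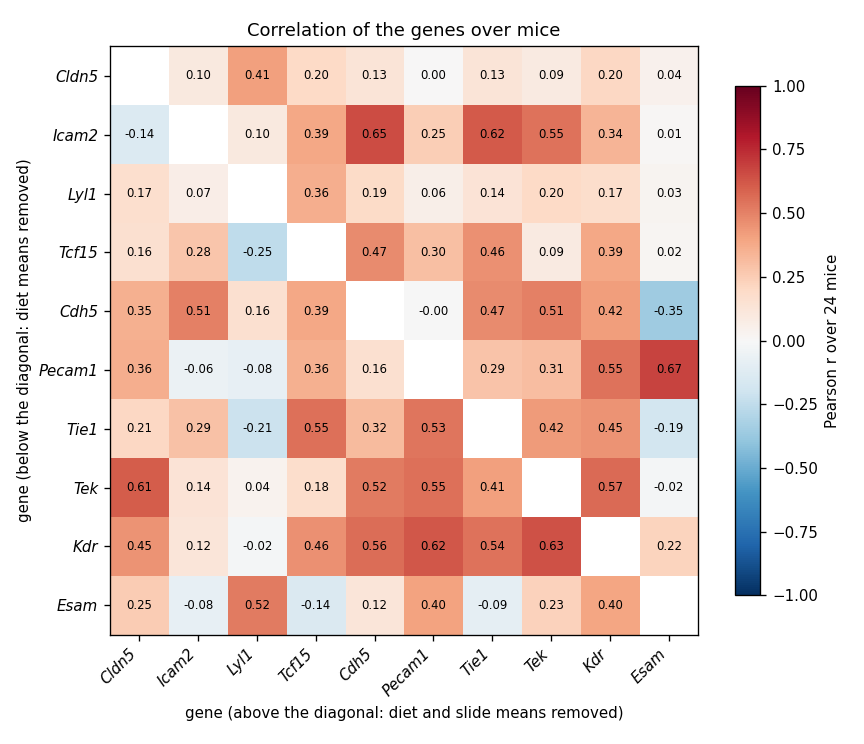
Pearson r between each pair of the 10 genes over 24 mice, with diet means removed (below the diagonal) and with diet and slide means removed (above it); red is positive and blue negative. Kdr, Tek, Tie1 and Pecam1 are positive with each other on both sides of the diagonal, and Lyl1 with Tcf15 goes from -0.25 to 0.36.

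Mice with a high mean over the 6 general genes also had a high mean over the 4 chosen genes (r = 0.63, rho = 0.55 with diet means removed; r = 0.50 with slide means removed as well; r = 0.48 without the 2 mice farthest from the median; 24 mice). With the 26 genes of the wider list r was 0.32 and, after slide means were removed, 0.80. With the slow fibre genes it was 0.039 and 0.39, with the mural genes 0.22 and 0.51, with the macrophage genes -0.12 and 0.081 and with the percentage of spots that stood well above background 0.13 and 0.24. Within single diets the relation of the 6 general genes with the wider list was uneven, at 0.35 in cHF, -0.096 in cHF+F and 0.60 in cHF+ROSI. Removing slide means thus raised the r with the wider list and lowered that with the chosen genes.

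The genes most like the 6 general members depended on whether slide means were removed. With diet means removed, Ppargc1b (r = 0.88), Rbm25 (0.87), Ptprb (0.85), Slc28a2 (0.83), Npepps (0.83), Zmynd8 (0.83), Eif5b (0.82), Xrn2 (0.82), Mmut (0.82) and Map4 (0.81) came first over 24 mice, and of these only Ptprb, a phosphatase of the endothelial surface that acts on Tek, was in the endothelial lists. With slide means removed, Dchs1 (0.89), 2700081O15Rik (0.86), Pcdh12 (0.86), Sipa1 (0.85), Mpzl1 (0.83), Fbxo33 (0.83), Ptprg (0.82), Dstyk (0.82), Plxdc1 (0.82) and Chd3 (0.82) came first. Pcdh12 encodes a cadherin of endothelial cells and was at -0.31 in cHF+F and -0.22 in cHF+ROSI. No gene was among the first 10 in both. The first genes are the extremes of 15958 probes, and the lowest r over all probes was -0.87 and, with slide means removed, -0.91. The 26 genes of the wider list had a median r of 0.15 with the general members when diet means were removed. It was 0.40 when slide means were removed too, against 0.034 and 0.023 for all probes.

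For the 4 chosen genes the nearest patterns, with diet and slide means removed, were as follows. Cldn5 was closest to Klf6 (r = 0.82), Ppip5k1 (0.81), Ghr (0.80), Cd99 (0.79) and Retnla (0.77). Icam2 was closest to Rnf135 (0.84), Chsy1 (0.83), Jam3 (0.83), Pde2a (0.82) and Grik5 (0.82), of which Jam3 is an adhesion molecule of tight junctions and of the junction list. Lyl1 was closest to Clec10a (0.85), a lectin of macrophages and dendritic cells, Rsf1 (0.85), Dock11 (0.83), Tgfbi (0.81) and Nsmce2 (0.80). Tcf15 was closest to Canx (0.88), Golga2 (0.86), Gtf3c1 (0.86), Wasf2 (0.85) and Plekhg2 (0.85), with 23 mice for Gtf3c1 and 24 for the others. With only diet means removed, the first for each gene were Rab1a (0.74), Pde2a (0.74), Miip (0.79) and Nfic (0.78), and Pde2a and Chsy1 were near Icam2 in both lists.

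The 3 member probes that were not bright enough were second probes of Kdr (chr5:76243311-76243370), Pecam1 (chr11:106497834-106497893) and Tek (chr4:94233814-94233873). In Cy5 they stood at 1.73, 1.51 and 2.56 times the local background, against 20.8, 10.2 and 8.61 times for the probes used, and no level was drawn from them.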

How the data were processed

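The authors labelled muscle RNA of each mouse with Cy5 and a pool with Cy3, hybridised them on Agilent arrays and read them with Feature Extraction (version 10.5.5.1 in the submitters' processing notes and 10.5.1.1 per the file headers). The deposited scanner files hold spot intensity values on a linear scale, with probe coordinates of mm8. The deposited table of log2 values was normalized by the authors; its cHF and cHF+F columns served as an alternative, and 8 columns of another group were not used.

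From the median signals, the background was corrected by normexp (offset 50), ratios were normalized by loess (span 0.3), flagged spots were left out and spots of a probe averaged (R 4.3.3, limma 3.58.1). Probes with a mean signal at least 2 times the background in both channels and 4 unflagged arrays per diet were kept: 15958 probes, 12577 named by accession, 2544 by the file and 837 unnamed, with 10697 symbols. Where several probes measured a gene, the brightest stood for it. For Cy5 or Cy3 alone, corrected signals were quantile-normalized between arrays. limma's moderated test was fitted to all 24 arrays, with Benjamini-Hochberg adjustment over all kept probes; calls had an adjusted p under 0.05. The fit was tested on simulated data with independent noise and no slide effect, which does not cover deviations shared by arrays of the same slide. Nothing states that arrays were technical repeats, and no 2 arrays held identical values. The number of arrays limits the precision.

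Replicate number was the slide, from the file names, so same-numbered arrays share a slide, not an animal. The correlation of their deviations was over 0.1 in 18 of 24 pairs, and in 39 of 168 pairs of different slides. The members and lists were chosen with earlier results of these data known. All members are named; of each list, the genes with the smallest p-values in cHF+F versus cHF (up to 4) are named, with Tmem204, Ptprb, Prox1 and Cd99 named for the places they held; of all genes with a symbol, those that correlate best with the 6 general members (10) and with each chosen gene (5). Alternatives covered background, signal, normalization, channel, filter, flags, block, array weights, test, deposited table, arrays and probe per gene.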

Additional observations from a re-analysis of the deposited data

Results flagged for a closer look

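Within the 8 mice of a diet, 3 values stood apart from the rest, out of 33 groups of 8 (11 probes in 3 diets), where chance would flag about 1 group in 20. The value of Esam in cHF replicate 1 was -0.39, with the nearest at -0.15 and the other end of the group at 0.062, and in cHF+F replicate 1 it was -0.41, with the nearest at -0.25 and the other end at -0.11. The value of Tek in cHF replicate 1 was -0.14, with the nearest at 0.11 and the other end at 0.29. All 3 lay on slide 1. Without cHF replicate 1, the change in cHF+F versus cHF was -0.18 for Esam and -0.14 for Tek, and without cHF+F replicate 1 it was -0.10 for Esam.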

How the results depend on the processing

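The slide as a replicate block brought 6 calls in cHF+F versus cHF in place of 0, and none among the 6 general genes in any contrast; it changed no other call. Mean spot signals gave 2 calls, no filter 3 and array weights 12 in that contrast. Leaving out 1 array at a time gave 0 to 2 calls in cHF+F versus cHF and 0 to 2 in cHF+F versus cHF+ROSI, with calls in the first without cHF replicate 8 (1) and cHF+F replicate 8 (2), and in the second without cHF+F replicate 7 (1) and cHF+ROSI replicate 7 (2); the cause was not tested. In Cy5 alone the median of the members moved to -0.26 in cHF+F versus cHF and to -0.25 in cHF+ROSI versus cHF. The median of the other general endothelial genes in cHF+ROSI versus cHF moved to -0.088 with Feature Extraction processed signals and to -0.091 in Cy5 alone without slides 1 to 3, and reached 0.015 when 1 array was left out. The sign of a change of the 6 general genes turned as follows: in Cy5 alone, Kdr in cHF+F versus cHF (0.038), Cdh5 in cHF+ROSI versus cHF (0.097) and Pecam1 in cHF+F versus cHF+ROSI (0.035); in Cy5 alone without slides 1 to 3, Esam in cHF+ROSI versus cHF (0.16); without the array with the most spots above background, which is cHF+ROSI replicate 4, Tie1 in cHF+F versus cHF+ROSI (-0.021). With 1 array left out, Tie1 in cHF+F versus cHF+ROSI ran from -0.021 to 0.050, with -0.018, -0.011 and -0.00638 without cHF+F replicate 6, cHF+F replicate 8 and cHF+ROSI replicate 7; in cHF+ROSI versus cHF, Pecam1 ran from -0.087 to 0.0068 (without cHF replicate 8), with 0.0018 without cHF+ROSI replicate 1, and Esam from -0.086 to 0.012 (without cHF+ROSI replicate 1). Of the chosen genes, Tcf15 in cHF+ROSI versus cHF (0.011) turned to -0.027 without background correction, -0.013 with median centring, -0.093 in Cy5 alone, -0.042 without slides 1 to 3 and -0.037 with both, and to -0.0052, -0.021 and -0.015 without cHF replicate 2, cHF+ROSI replicate 1 and cHF+ROSI replicate 6.

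In cHF+F versus cHF the median of the members ran from -0.26 to -0.16 over the 17 alternative settings, and from -0.20 to -0.13 with 1 array left out; that of the other general endothelial genes ran from -0.14 to -0.081 and from -0.14 to -0.089. The stricter filter kept 8 members, all lower. Values of a single channel are limited by slides 1 to 3, which differed in Cy3 although the pool was the same.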
